A study of Homo sapiens with 12 samples.

Results

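Differentiation 2 was compared with differentiation 1 in iPSC-derived microglia (iMGLs), a comparison of 2 culture batches of the same clones. Libraries were chosen by their batch label alone, 6 of differentiation 2 and 6 of differentiation 1, which are all 12 libraries of the series. Each of 6 clones gave 1 library in each differentiation, so that every difference was taken within a clone as differentiation 2 minus differentiation 1, with both genotypes together. All clones came from WTC11, an established human iPSC line edited with CRISPR. Clones J, K and L were WT controls and clones A, B and C were LACTB KO, LACTB being a mitochondrial serine protease. Each line is a single clone, so a difference between 2 clones is not a replicated difference between genotypes. In both differentiations hematopoietic precursors were matured in medium with IL34, TGFb and MCSF, were replated at day 24 with CX3CL1 and CD200 added, and were collected at day 27 without further treatment. The labels do not say whether the clones that share a differentiation number were grown side by side or extracted together, and dense cultures were split, so culture date, density and RNA handling cannot be told apart from the differentiation number.

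Repeated differentiations of an iPSC line are known to vary in how pure, how dense and how mature the cultures are at collection. Microglia, like other macrophages, keep their sterols in balance through a pair of opposed programs. When membrane sterol is low, the transcription factor SREBP2 is released from the endoplasmic reticulum and induces the enzymes of cholesterol synthesis and the receptors for lipoprotein uptake. When sterol is plentiful, oxysterols activate the LXR receptors, which induce the efflux transporters ABCA1 and ABCG1. Cultures also differ in proliferation, in the immediate early genes that answer handling within minutes, and in residual stromal cells that make collagen.

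The libraries held between 24153233 and 28406943 estimated counts, with overlapping totals in the 2 differentiations. LACTB checked the genotype labels and was not the object of the comparison. It stood at 71.6, 78.6 and 76.4 CPM (counts relative to the scaled library total) in clones J, K and L of differentiation 1 and at 81.1, 98.1 and 75.4 CPM in differentiation 2. Clones A and C lay between 7.49 and 9.78 CPM, whereas clone B, labelled KO as well, had 44.4 and 51.6 CPM, below every WT library and well above clones A and C. Defining microglial markers were present in every library, the sum of 13 of them being 6825 to 7503 CPM in differentiation 1 and 7067 to 8270 CPM in differentiation 2. The sum of 11 stromal markers ranged from 22.2 to 9273 CPM in differentiation 1 and from 18.2 to 4172 CPM in differentiation 2, the highest libraries being clone J of differentiation 1 and clone K of differentiation 2. Epithelial markers summed to 212 CPM in that clone J library and to 53.4 to 64.3 CPM in the other 11, through KRT8 (126 against 20.6 to 32.1 CPM) and KRT18 (81.1 against 18.4 to 26.7 CPM). EPCAM, CDH1 and KRT19 stood at 1.18, 0.332 and 3.61 CPM there, within the range of the other libraries. The sum therefore does not show epithelial cells. The mast cell marker sum was lowest in clone J, at 3.39 and 1.75 CPM against 12.2 to 27.7 CPM in the other clones. It was almost wholly KIT, at 3.39 and 1.71 CPM in clone J. CPA3, TPSAB1, TPSB2, HDC and MS4A2 reached at most 0.0414 CPM in any library, so the sum does not show mast cells. Endothelial markers summed to 323 to 443 CPM, of which nearly all was PECAM1 (322 to 442 CPM). KDR, the next highest, reached at most 6.08 CPM and CDH5 at most 0.0747 CPM, so the sum does not show endothelial cells. Neural markers summed to 5.12 to 27.1 CPM, and both sums overlapped between the differentiations. The sums of megakaryocyte, erythroid, lymphoid, granulocyte and pluripotent markers reached at most 10.01, 9.58, 2.47, 1.56 and 0.745 CPM.

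Of 15530 genes tested, 0 passed an adjusted p under 0.05 (0% of genes) in edgeR's quasi-likelihood test with clone as block, and the smallest adjusted p was 0.0906. At an unadjusted p under 0.05, 942 genes were higher in differentiation 2 (6.07%) and 604 were lower (3.89%). DESeq2 on the same design called 303 genes, 230 higher and 73 lower, and edgeR without clone J called 50, of which 44 were higher. A direction shared by all 6 clones was found for 569 genes that were higher in differentiation 2 (3.66%) and for 431 that were lower (2.78%), while 4603 genes (29.6%) were split 3 against 3. Adjusted p-values below are those of edgeR with Benjamini-Hochberg adjustment over all genes, and log2 fold changes are given with the standard error of that fit. That error rests on the spread of the change between clones, not between culture batches. Since no gene passed, the genes below are described by their values, their p and the number of clones that shared a direction.

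Genes of cholesterol synthesis and uptake had higher levels in differentiation 2. All 25 genes of the list were tested, 24 had a positive log2 fold change and 20 were higher in differentiation 2 in all 6 clones. The median log2 fold change of the list was 0.87, against 0.00 over all genes tested, and 23 of 25 had an unadjusted p under 0.05. None passed the adjusted threshold in the fit of all clones, where the list's smallest adjusted p was 0.0906. DESeq2 called 23 of the 25, and edgeR called 22 of the 25 when clone J was left out, each of them higher.

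DHCR7 makes the last step from 7-dehydrocholesterol to cholesterol and lies at chr11:71428193-71452868 (hg38, minus strand). Its levels were 75.9, 84.7 and 177 CPM in differentiation 1 (lowest, median and highest of 6 libraries) and 171, 184 and 221 CPM in differentiation 2. The groups overlapped only through clone J, whose differentiation 1 library was the highest of its group. The log2 fold change was 1.00 ± 0.13 (SE, 6 clones; adjusted p = 0.0906), higher in 6 of 6 clones. IDI1, the isomerase that supplies the activated isoprene unit and lies at chr10:1039152-1049119 on the minus strand, had 85.7, 92.7 and 162 CPM in differentiation 1 and 165, 199 and 234 CPM in differentiation 2. Here the groups did not overlap, and the log2 fold change was 0.96 ± 0.12 (adjusted p = 0.0906). NSDHL, which removes the C4 methyl groups of sterol intermediates, had medians of 20.1 and 29.2 CPM, a log2 fold change of 0.49 ± 0.07 (adjusted p = 0.0906) and a higher level in 6 of 6 clones.

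Other members were chosen after their values were seen. HMGCS1, which condenses acetoacetyl-CoA to HMG-CoA, had a log2 fold change of 1.17 ± 0.17 and MSMO1, a sterol methyl oxidase, one of 1.24 ± 0.18, both with an adjusted p of 0.0963. SREBF2, the gene of SREBP2 itself, had a smaller value of 0.61 ± 0.11 (adjusted p = 0.188). PMVK, the phosphomevalonate kinase of the same pathway, was the member with a negative value, -0.0044 ± 0.093, and was split 3 against 3 over the clones.

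**Figure D1:**
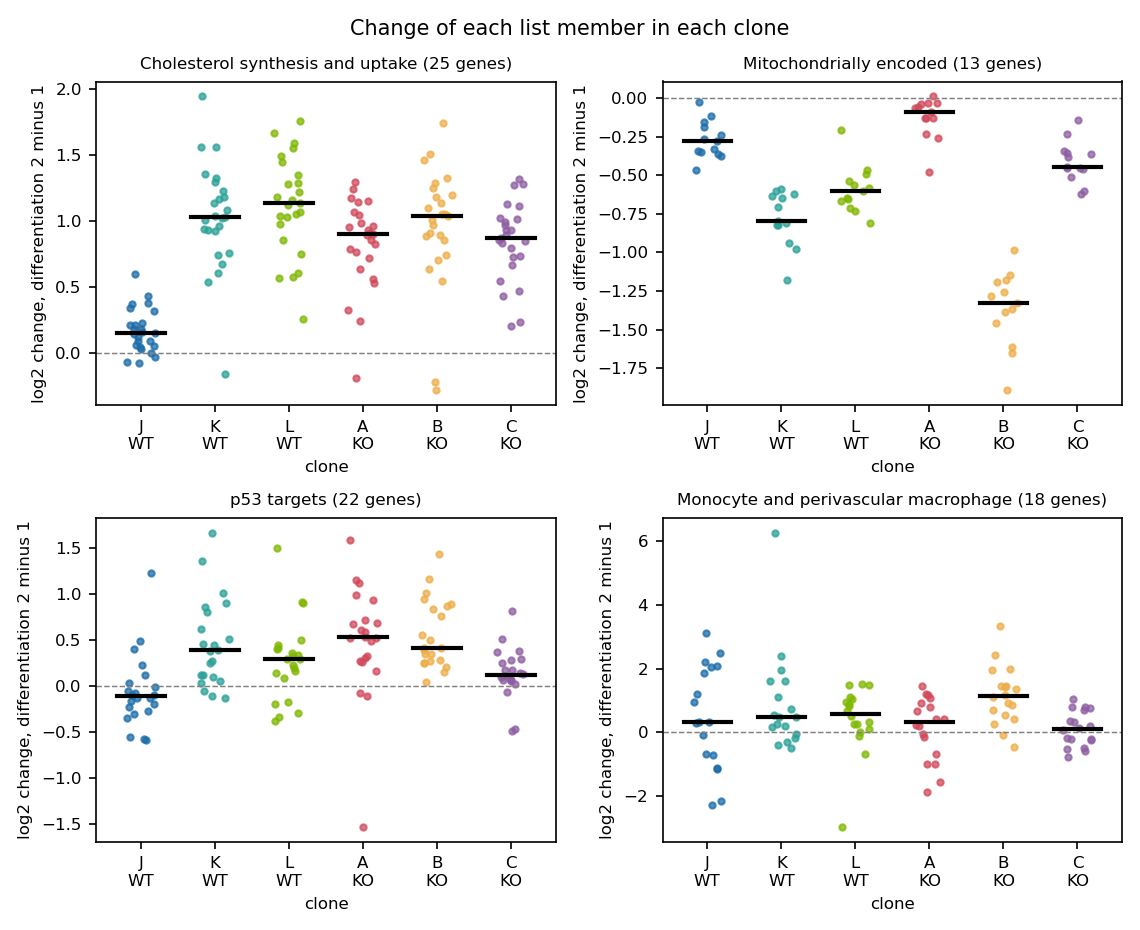
Log2 change in CPM (differentiation 2 minus differentiation 1, vertical axis) of every tested member of 4 gene lists in each of 6 clones (horizontal axis, WT clones J, K and L, LACTB KO clones A, B and C). Points are genes and black bars are medians. The cholesterol medians lie between 0.87 and 1.13 in 5 clones and at 0.15 in clone J, and the mitochondrially encoded medians are negative in all 6.

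Promoter sequence was available for 19 of the 25 cholesterol genes in the RefSeq set of GRCh38.p14, each entry covering 250 bases before to 50 bases after a transcript start. Where a gene has several entries, the one at the start of its MANE Select transcript, the representative isoform marked in GENCODE 44, was used, and promoters in all were counted in the same way. The motif CCAAT, the letters bound by NF-Y, a factor known to act beside SREBP2, was searched on both strands. It was present in 17 of the 19 promoters (89.5%), against 5370 of 14473 promoters in all (37.1%) and 3651 of the 9852 promoters of genes tested. A strict sterol element, TCACNCCAC, was present in 1 of the 19 (5.26%), against 1.19% of all promoters, and no match says only that these letters are not in this window. The 2 promoters without CCAAT were those of CYP51A1, a lanosterol demethylase with a log2 fold change of 1.04, and PMVK. The promoters of 4 genes are shown 5′ to 3′ in the gene's own direction, with CCAAT (or ATTGG, its reverse complement) in capitals and, in SREBF2, the sterol element TCACCCCAC in capitals as well. DHCR7 and NSDHL are members with a difference in all 6 clones, SREBF2 carries the one sterol element, and PMVK is the member with no difference and no match. The entries lie at chr11:71448344-71448643 on the minus strand, chrX:152830813-152831112 on the plus strand, chr22:41832855-41833154 on the plus strand and chr1:154936670-154936969 on the minus strand.
DHCR7: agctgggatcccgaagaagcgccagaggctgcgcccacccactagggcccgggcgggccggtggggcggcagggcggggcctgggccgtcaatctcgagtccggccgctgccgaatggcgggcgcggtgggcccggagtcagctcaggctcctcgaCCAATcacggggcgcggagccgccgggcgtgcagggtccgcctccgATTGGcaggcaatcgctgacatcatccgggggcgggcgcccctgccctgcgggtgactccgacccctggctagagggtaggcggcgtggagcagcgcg
NSDHL: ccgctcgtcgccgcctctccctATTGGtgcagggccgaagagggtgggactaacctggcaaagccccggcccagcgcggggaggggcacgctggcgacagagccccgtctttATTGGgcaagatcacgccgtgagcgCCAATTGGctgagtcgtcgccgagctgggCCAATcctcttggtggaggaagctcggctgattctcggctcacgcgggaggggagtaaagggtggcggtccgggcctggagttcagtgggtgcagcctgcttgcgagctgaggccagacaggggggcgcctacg
SREBF2: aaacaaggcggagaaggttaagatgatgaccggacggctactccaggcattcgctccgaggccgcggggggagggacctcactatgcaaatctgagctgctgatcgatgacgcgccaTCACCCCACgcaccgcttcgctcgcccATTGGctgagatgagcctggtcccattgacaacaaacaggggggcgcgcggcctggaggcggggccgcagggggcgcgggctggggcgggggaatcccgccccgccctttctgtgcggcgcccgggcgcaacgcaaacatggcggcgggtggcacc
PMVK: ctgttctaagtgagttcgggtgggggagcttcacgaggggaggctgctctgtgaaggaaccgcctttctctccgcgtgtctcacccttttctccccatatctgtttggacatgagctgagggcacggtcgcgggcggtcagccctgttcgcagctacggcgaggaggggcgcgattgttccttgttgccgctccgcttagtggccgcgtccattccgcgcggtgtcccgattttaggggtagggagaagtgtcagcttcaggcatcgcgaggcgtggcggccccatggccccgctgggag
The SREBF2 sterol element begins 133 bases before the transcript start and overlapped no CCAAT, and NSDHL held 5 matches, of which 2 were on the gene's own strand.

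Clone J was the clone that stood apart in this list. Its median change was 0.15, against 0.87 to 1.13 in the other 5 clones. The difference lay in its differentiation 1 library, which was above the other 5 libraries of differentiation 1 in 24 of the 25 genes, where 24.8% of all genes tested were so placed. In 21 of the 25 genes that library fell inside the range of the 6 libraries of differentiation 2. The same library had the highest stromal and epithelial marker sums, 9273 and 212 CPM, the epithelial sum through KRT8 and KRT18 alone. The next highest stromal sum was 4172 CPM, in clone K of differentiation 2. When a covariate for stromal gene level was added to the fit, the list's median over all clones was 0.86, a value that does not single out clone J. Why clone J stood apart was not tested.

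ABCG1 and ABCA1, the sterol efflux transporters, had lower levels in differentiation 2 in 5 clones and higher levels in clone J. Both belong to the list of lipid-associated microglia, of which 23 genes were tested, 2 were higher and 4 lower at an unadjusted p under 0.05, 0 were higher and 1 lower in all 6 clones, and the median was -0.19. ABCG1, which passes cholesterol to HDL (chr21:42199689-42297244, plus strand), had 4.36, 25.1 and 39.8 CPM in differentiation 1 and 2.85, 4.0 and 4.75 CPM in differentiation 2. Clone J was the lowest library of differentiation 1 and the highest of differentiation 2. The log2 fold change was -2.43 ± 0.47 (adjusted p = 0.201), 5.41-fold lower, with a change of 0.12 in clone J and of -1.94 to -3.77 in the others. ABCA1, which loads cholesterol onto apolipoprotein A-I (chr9:104781006-104928155, minus strand), had 20.2, 60.3 and 119 CPM in differentiation 1 and 8.52, 16.4 and 42.2 CPM in differentiation 2. Again clone J was the lowest library of the first group and the highest of the second, and its change of 1.06 was the one positive value. The log2 fold change of ABCA1 was -1.75 ± 0.49 (adjusted p = 0.308), and without clone J edgeR called both transporters, at -2.87 for ABCG1 and -2.21 for ABCA1.

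MYLIP and EEPD1, also LXR-induced, were chosen after their values were seen. MYLIP, a ligase that degrades lipoprotein receptors, had medians of 10.3 CPM in differentiation 1 and 5.40 CPM in differentiation 2, and EEPD1, a regulator of ABCA1 activity, had medians of 39.1 and 22.8 CPM. Both were lower in 5 of 6 clones and higher in clone J, with log2 fold changes of -0.69 ± 0.23 (adjusted p = 0.369) and -0.71 ± 0.17 (adjusted p = 0.262). NPC1, which exports cholesterol from the lysosome, was higher in 6 of 6 clones by 0.21 ± 0.07 (adjusted p = 0.351), with 0.54 in clone J and 0.11 to 0.19 in the others.

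**Figure D2:**
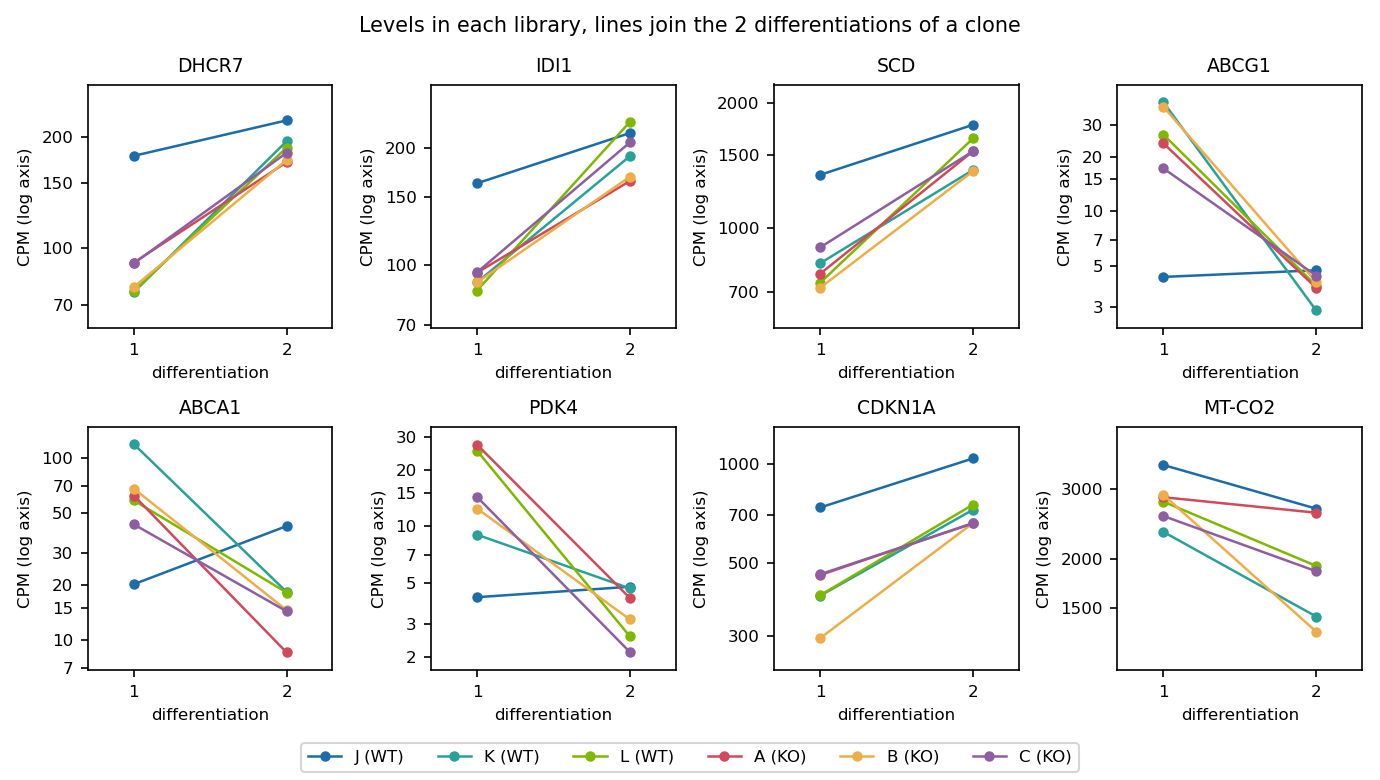
Levels of 8 genes in each of 12 libraries, in CPM on a log axis, with lines joining differentiation 1 and differentiation 2 of the same clone. Clone J starts near the differentiation 2 level in DHCR7, SCD, ABCG1 and PDK4. The range of levels is narrower in differentiation 2 for ABCG1 and PDK4 and wider for MT-CO2.

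Fatty acid synthesis followed sterol synthesis in part. The list of 24 tested genes had a median log2 fold change of 0.28, with 18 positive and 6 negative values, 7 genes higher in all 6 clones, and 13 higher and 2 lower at an unadjusted p under 0.05. SCD, the desaturase that makes monounsaturated fatty acids (chr10:100347233-100364826, plus strand), had 718, 799 and 1342 CPM in differentiation 1 and 1369, 1530 and 1770 CPM in differentiation 2, with no overlap. Its log2 fold change was 0.83 ± 0.10 (adjusted p = 0.0906), higher in 6 of 6 clones. FADS2, which introduces a further double bond into polyunsaturated fatty acids, was higher in 5 clones by 0.98 to 1.33 and stood at -0.02 in clone J (log2 fold change 0.95 ± 0.17, adjusted p = 0.148). Over the whole list the median change of clone J was 0.05, against 0.21 to 0.43 in the others.

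Genes of fatty acid oxidation were not lower as a group, with 14 of 26 tested genes positive. Their median log2 fold change was 0.00. At an unadjusted p under 0.05, 4 were lower and 1 was higher, against 3.89% and 6.07% of all genes tested. Higher in all 6 clones was 1 member, against 3.66% of all genes tested. PDK4, a kinase that closes pyruvate dehydrogenase while fat is burned, had 4.17, 13.4 and 27.4 CPM in differentiation 1 and 2.12, 3.66 and 4.75 CPM in differentiation 2. CPT1A, the gate for long-chain fatty acids into mitochondria, had medians of 22.4 and 10.5 CPM. In both genes clone J was the lowest library of differentiation 1 and was slightly higher in differentiation 2, by 0.18 in PDK4 and 0.08 in CPT1A, while the other 5 clones were lower in differentiation 2. The log2 fold changes were -1.95 ± 0.46 for PDK4 (adjusted p = 0.262) and -1.10 ± 0.28 for CPT1A (adjusted p = 0.278). ACADVL, the first dehydrogenase of long-chain oxidation, was the 1 member of 26 that was lower in all 6 clones (2.78% of all genes tested), with 184, 277 and 391 CPM against 158, 173 and 175 CPM and no overlap, and with a log2 fold change of -0.69 ± 0.14 (adjusted p = 0.228).

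Transcripts of the mitochondrial genome were lower in differentiation 2. All 13 protein-coding members were tested, all 13 had a negative log2 fold change and an unadjusted p under 0.05, and 12 were lower in all 6 clones. The median was -0.60, and the clone medians were -0.28, -0.80, -0.60, -0.09, -1.33 and -0.45 in clones J, K, L, A, B and C. All genes with a symbol beginning MT-, not these 13 alone, made up 4.12%, 5.10% and 6.23% of counts in differentiation 1 (lowest, median and highest). In differentiation 2 they made up 2.5%, 3.65% and 5.00%. MT-CO2, a subunit of cytochrome c oxidase, had 2339, 2823 and 3447 CPM in differentiation 1 and 1311, 1890 and 2676 CPM in differentiation 2, with overlapping groups. The log2 fold change was -0.56 ± 0.12 (adjusted p = 0.239). MT-CO3 had -0.56 ± 0.13 (adjusted p = 0.262) and MT-ND4L, a complex I subunit, -0.65 ± 0.16 (adjusted p = 0.271). DESeq2 called all 13 lower, and edgeR called 0 of the 13 in each of its alternatives. Nuclear copies of these genes share reads with them, so the split between the 2 is uncertain.

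The nuclear genes of oxidative phosphorylation did not follow. Of 79 tested, 31 had a positive and 48 a negative log2 fold change, the median was -0.02 and 0 were higher or lower in all 6 clones. By clone the medians were 0.31, -0.21, 0.17, -0.18, -0.26 and 0.03 in clones J, K, L, A, B and C, positive in 3 clones and negative in 3. Clones K, A and B, with negative nuclear medians, included both the clones with the lowest mitochondrial medians, K and B, and the one nearest to zero, A.

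All 22 tested p53 targets had a positive log2 fold change, with a median of 0.23, but clone J had a median of -0.11 and 3 genes were higher in all 6 clones. CDKN1A, the cell cycle inhibitor p21 (chr6:36676460-36687337, plus strand), had 296, 430 and 737 CPM in differentiation 1 and 660, 694 and 1039 CPM in differentiation 2. Its groups overlapped only through the differentiation 1 library of clone J, and the log2 fold change was 0.75 ± 0.10 (adjusted p = 0.0906), higher in 6 of 6 clones. ZMAT3, an RNA-binding p53 target, had 0.53 ± 0.12 (adjusted p = 0.259) and CCNG1, a cyclin induced by p53, 0.24 ± 0.07 (adjusted p = 0.346), both higher in 6 of 6 clones. In 18 of the 22 genes the differentiation 1 library of clone J was above the other 5 of its group.

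Cell cycle genes did not move as 1 block. Of 50 mitosis genes, 45 had a positive log2 fold change, 11 were higher in all 6 clones and 0 were lower in all 6, with a median of 0.21. CCNB1, the cyclin that drives entry into mitosis, had 17.9, 18.8 and 19.5 CPM in differentiation 1 and 24.6, 28.6 and 32.8 CPM in differentiation 2, with no overlap (log2 fold change 0.60 ± 0.07, adjusted p = 0.0906). KIF20A, a kinesin of cytokinesis, had 2.57, 4.84 and 6.89 CPM against 7.98, 9.91 and 10.7 CPM, again without overlap (1.04 ± 0.22, adjusted p = 0.226), and CENPF, a kinetochore protein, had 0.70 ± 0.15 (adjusted p = 0.228). MKI67, the general proliferation marker, was higher in 5 of 6 clones by 0.56 ± 0.16 (adjusted p = 0.318) and lower in clone K.

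All 50 replication and S phase genes had a negative log2 fold change, with a median of -0.30, yet 1 was lower in all 6 clones and the clones disagreed. Clone medians were -0.95 in K and -1.01 in B, -0.23 in A and -0.15 in C, and they were 0.34 in J and 0.07 in L. MCM7, a subunit of the replicative helicase, had overlapping levels of 82.5, 163 and 242 CPM in differentiation 1 and 88.8, 125 and 153 CPM in differentiation 2 (-0.43 ± 0.18, adjusted p = 0.477). POLE, the catalytic subunit of the leading strand polymerase, had -0.40 ± 0.14 (adjusted p = 0.388). Mitosis medians were negative in 2 clones, K (-0.24) and B (-0.08), and highest in clone A (0.91).

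Genes of monocytes and perivascular macrophages were higher in differentiation 2 by the clone medians of all 6 clones, which ran from 0.10 in C to 1.14 in B. Of 18 genes, 16 had a positive log2 fold change, 7 were higher and 0 lower at an unadjusted p under 0.05, and the median was 0.60. Only 2 of the 18 were higher in all 6 clones, where 3.66% of all genes tested were. Members higher in differentiation 2 numbered 10 in clone C, 11 in clones J and A, and 16 in clone B. CD14, the lipopolysaccharide co-receptor, had 30.8, 41.1 and 62.2 CPM in differentiation 1 and 42.2, 68.6 and 120 CPM in differentiation 2, with overlap between clones but the same direction in 6 of 6 (0.66 ± 0.12, adjusted p = 0.186). MRC1, the mannose receptor, was higher in 5 clones and slightly lower in clone A (0.92 ± 0.24, adjusted p = 0.286). In bulk libraries, a different number of cells of a type and a different amount of RNA per cell cannot be told apart.

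Microglial identity genes were close to equal on average, with clone medians from -0.17 in K to 0.18 in J. Of the 27 genes, 20 were higher in clone J and 20 were lower in clone C. P2RY12 was lower in differentiation 2 in clone K and higher in clone A. TREM2, another microglial marker, was higher in clone J and lower in clone K. The 27 genes had a median log2 fold change of 0.05 and a range of -0.21 to 0.60, and 0 had the same direction in all 6 clones. CSF1R, the growth factor receptor that microglia need to survive, had medians of 1854 and 1707 CPM (-0.14 ± 0.06, adjusted p = 0.529). CX3CR1, the fractalkine receptor, had medians of 879 and 813 CPM, and its change was 1.03 in clone A and between -0.39 and -0.04 in the others. Complement and Fc receptor genes had a median of 0.16 with 4 of 20 higher in all 6 clones, among them CD59, which blocks the membrane attack complex (0.29 ± 0.06, adjusted p = 0.201). Ribosomal protein genes had small and mostly positive values, with 78 of 85 positive, 14 higher in all 6 clones and a median of 0.13.

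**Figure D3:**
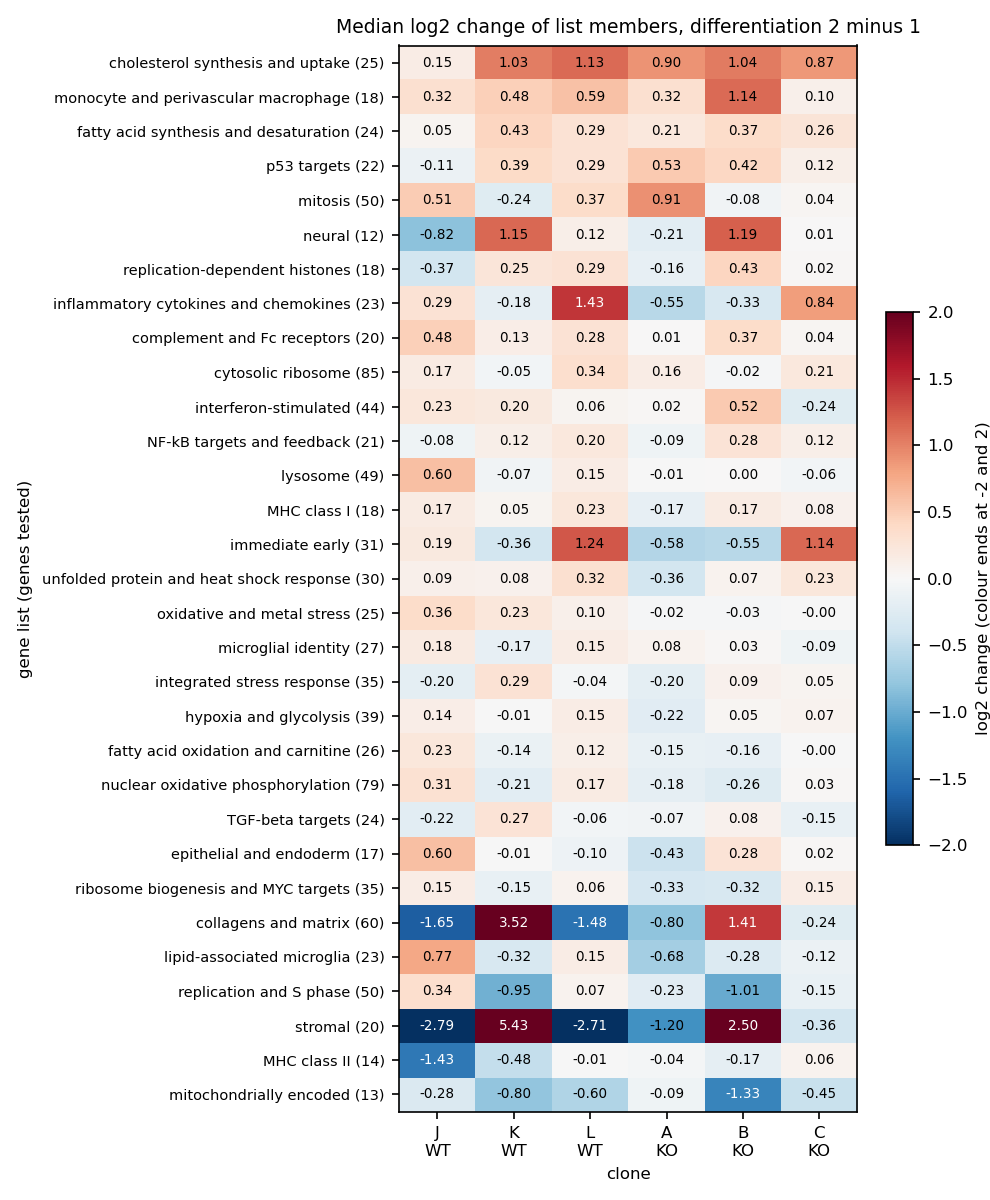
Median log2 change (differentiation 2 minus differentiation 1) of the members of each gene list with at least 10 tested genes (rows, number tested in brackets) in each of 6 clones (columns). Numbers in the cells are the medians and the colour scale ends at -2 and 2. Cholesterol, fatty acid synthesis, monocyte, complement and mitochondrially encoded lists keep 1 sign in all 6 clones. Stromal, collagen, immediate early and replication lists, for example, do not.

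Stromal and matrix genes varied most between differentiations among the lists with at least 10 tested genes, in opposite directions by clone. The 20 tested stromal genes had clone medians of -2.79 in J, 5.43 in K, -2.71 in L, -1.20 in A, 2.5 in B and -0.36 in C, and their median log2 fold change was -0.33. Another 10 list members did not pass the filter on low counts and were not tested. COL1A1, the main chain of fibrillar collagen, stood in clone J at 3678 CPM in differentiation 1 and 242 CPM in differentiation 2, and in clone K at 7.40 and 2367 CPM. In clone B it stood at 48.6 and 446 CPM, and in clones L, A and C it was lower in differentiation 2. Its log2 fold change was -0.60 ± 1.76 (adjusted p = 0.956), an average over opposite changes. COL4A1, a basement membrane collagen, was higher in differentiation 2 by 8.30 in clone K and by 3.70 in clone B and lower in the other 4 clones, and IGFBP3, a secreted binder of insulin-like growth factors, by 7.50 in K and 4.66 in B. Matrix genes as a list had medians of 3.52 in K and 1.41 in B and negative medians in the other 4 clones.

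Immediate early genes split the clones otherwise. Their medians were 1.24 in clone L and 1.14 in clone C, 0.19 in clone J, and -0.36, -0.58 and -0.55 in clones K, A and B. FOS and EGR1, transcription factors induced within minutes of a stimulus and chosen after their values were seen, had the widest swings. FOS was 300 and 37.7 CPM in clone K, 322 and 41.8 CPM in clone B, 96.2 and 1162 CPM in clone C, and 143 and 804 CPM in clone L, in differentiation 1 and 2 respectively. EGR1 had changes of -4.73 in K and -4.77 in B and of 3.11 in C and 2.03 in L. JUN was the 1 gene of 31 in the list that was higher in all 6 clones, a share near the 3.66% of all genes tested, with medians of 60.4 and 89.9 CPM (0.55 ± 0.14, adjusted p = 0.278). Cytokines and chemokines had positive medians in L (1.43), C (0.84) and J (0.29) and negative ones in K (-0.18), A (-0.55) and B (-0.33), the same partition of clones. CCL2, the monocyte attractant, was 1 of 2 members, among 23 tested, that were higher in 6 of 6 clones, with medians of 17.5 and 33.8 CPM (0.97 ± 0.16, adjusted p = 0.122).

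**Figure D4:**
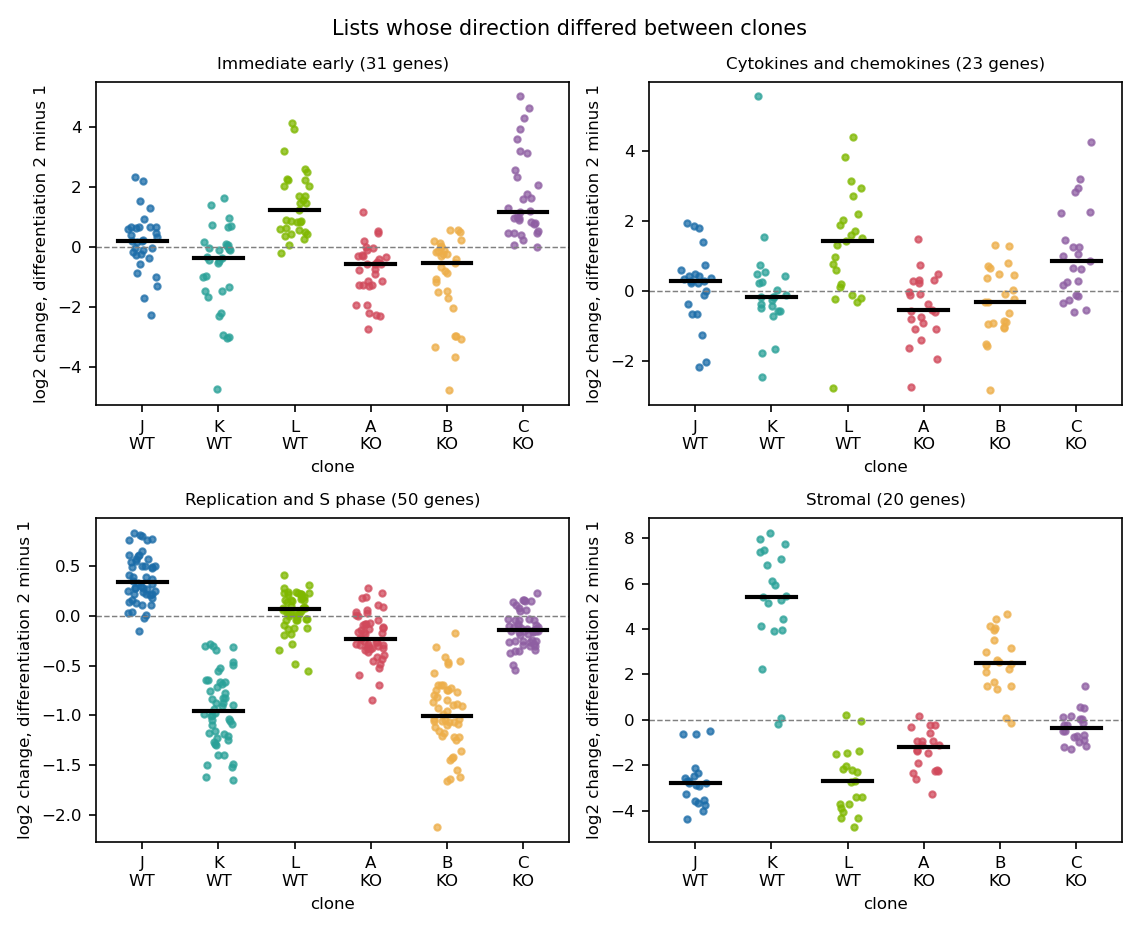
Log2 change in CPM (differentiation 2 minus differentiation 1) of every tested member of 4 lists in each clone, drawn as points with the median as a black bar. Immediate early and cytokine genes are higher in clones L and C and lower in A and B, replication genes are lowest in K and B, and stromal genes are higher in K and B and lower in J, L and A.

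MHC class II genes differed mainly in clone J, with a median of -1.43 against -0.48 to 0.06 in the other clones. CD74, the invariant chain that guides MHC class II to endosomes, had 4610, 7631 and 9547 CPM in differentiation 1 and 1751, 6142 and 7414 CPM in differentiation 2. It was lower in 6 of 6 clones, by 1.40 in clone J and by 0.01 in clone C, with a log2 fold change of -0.48 ± 0.17 (adjusted p = 0.409). Lysosome genes had a median of 0.60 in clone J and of -0.07 to 0.15 in the others.

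Outside these programs, the genes with the smallest p and a shared direction were of many kinds. TUBA1A, an alpha-tubulin, had 236, 252 and 347 CPM in differentiation 1 and 349, 372 and 468 CPM in differentiation 2, with no overlap (0.53 ± 0.06, adjusted p = 0.0906). RDH11, a retinal reductase, had 0.47 ± 0.05, PIGR, the receptor that transports polymeric immunoglobulin, 0.77 ± 0.09, S100B, a calcium-binding protein, 0.56 ± 0.07, and PRXL2A, a peroxiredoxin-like protein, 0.48 ± 0.06, all with an adjusted p of 0.0906 and higher in 6 of 6 clones. Among the lower genes, SNCAIP, a synuclein-binding protein, had 1.58, 2.12 and 2.88 CPM in differentiation 1 and 0.227, 0.511 and 0.745 CPM in differentiation 2, with no overlap (-2.20 ± 0.32, adjusted p = 0.0963). INF2, a formin that builds actin filaments, had -0.57 ± 0.08 (adjusted p = 0.096), and RTEL1, a DNA helicase of telomeres, had -0.44 ± 0.07 (adjusted p = 0.122). SIPA1L2, NTN1, GUCY1A1, DDX39B, FBXO41, LMF2 and ACAD11 completed the 10 lowest by p, with log2 fold changes between -1.30 and -0.23 and adjusted p-values from 0.136 to 0.219. NTN1 encodes the guidance cue netrin-1 and GUCY1A1 a subunit of the nitric oxide receptor.

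Sequence features of the genes moved with the differentiation as well. Protein-coding genes of the nuclear genome, 12957 in number, were divided into 10 groups of equal size by the length of their longest annotated transcript. In the group with the longest transcripts, 8068 bases or more, 9.57% of genes were higher and 1.16% lower in all 6 clones, against 3.32% and 1.70% in the group with the shortest, up to 1662 bases. Very long genes chosen after their values were seen, such as DYNC1H1, the dynein heavy chain (0.45 ± 0.09, adjusted p = 0.201), and MACF1, a cytoskeletal linker (0.68 ± 0.13, adjusted p = 0.201), were higher in 6 of 6 clones. By GC content of the same transcripts, 5.63% of the group richest in GC were lower and 2.08% higher in all 6 clones, against 1.47% and 4.24% of the group poorest in GC. The 25 cholesterol genes had a median longest transcript of 3087 bases, with a longest of 7379, below the group with the longest transcripts.

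Transcript length also separated the clones. In the group with the shortest transcripts the median change was 0.14 in J, 0.18 in L and 0.10 in C, and -0.10 in K, -0.12 in A and -0.15 in B, the same partition as that of the immediate early and cytokine lists. In the group with the longest transcripts it was largest in clone B, at 0.26. The part of this length pattern in the changes of the lists above was not tested.

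Across the 15530 genes the changes of 2 clones were correlated most in K and B (Pearson's r = 0.60) and then in J and L (0.39) and in L and C (0.37), and most negatively in K and L (-0.43) and in J and K (-0.40), for 15 pairs of clones that share no library. These are descriptions across genes, which are not independent. Clone A was correlated with no other clone beyond -0.14. Of the 1710 genes higher in exactly 5 clones, clone A was the exception in 486 and clone J in 434, and of the 1687 genes lower in exactly 5 clones, they were the exception in 508 and 384. Clone L was the exception least often among the first, in 78 genes. A change of over 2-fold was seen in 736 genes in clone C and in 1152 to 1731 genes in the other clones.

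**Figure D5:**
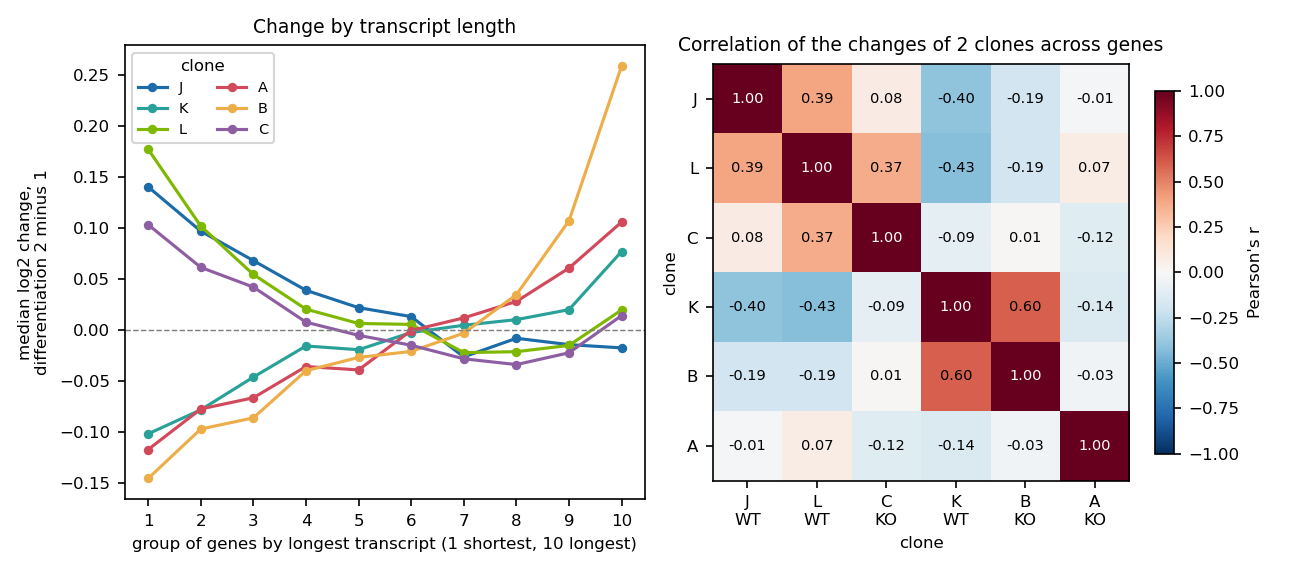
Left, median log2 change (differentiation 2 minus differentiation 1) in each clone for 10 groups of protein-coding genes ordered by the length of the longest transcript. The medians of the group with the shortest transcripts are positive in J, L and C and negative in K, A and B. Right, Pearson's r across 15530 genes between the changes of each pair of clones, highest for K and B at 0.60.

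No difference between the genotypes passed the threshold. The change in WT clones passed the adjusted threshold in 0 genes (917 at an unadjusted p under 0.05), as did the change in LACTB KO clones (671) and the interaction of genotype and differentiation (141, smallest adjusted p 0.999), all in edgeR. DESeq2 called 56 genes in WT clones, 59 in KO clones and 0 for the interaction. With 3 clones per genotype, an absent call does not show that the genotypes moved alike. DHCR7, for example, had 0.99 in WT and 1.01 in KO clones, an interaction of 0.02 ± 0.28, and CPT1A had -0.64 and -1.57, an interaction of -0.93 ± 0.47 (both adjusted p = 0.999).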

How the data were processed

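The authors deposited a table of estimated counts per gene for 12 polyA libraries, of which about 11% of values per library were not whole numbers (10.8% to 11.5%). Per the study's methods, reads were trimmed and aligned to hg38 with STAR; the counting tool, annotation and strand setting are not given in the sources used here. Counts were rounded and read in R 4.3.3. Genes with low counts were removed with filterByExpr, leaving 15530 of 62703. Libraries were scaled by TMM, and edgeR 4.0.16 (glmQLFit, glmQLFTest) was fitted to clone plus differentiation, with Benjamini-Hochberg adjustment and a threshold of 0.05. The fit of genotype-specific changes used the same clone block. Changes per clone are differences in log2 CPM with a prior count of 2, from 1 library each. The clone block came from the labels, which give each clone 1 library per differentiation; deviations of same-clone libraries from the group means correlated between -0.33 and 0.38. The p-values and standard errors rest on the spread of the change between clones. With 2 differentiations, they do not measure how further culture batches would vary. Gene symbols and positions are from GENCODE 44 (hg38), transcript lengths from the same release and promoters from RefSeq, 1 entry per gene at its MANE Select start. Alternatives used DESeq2 1.42.0, limma 3.58.1, other scaling and filters, a stromal covariate and each clone left out.

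Genes named are the 10 in each direction with the smallest p and 1 direction in 6 clones, the 3 members of each of 38 lists with the smallest p, the 10 with the most variable change, and a few fixed markers; others are said to be chosen after their values were seen. One gene that this rule names is not reported here. The gene lists and the comparison were chosen with earlier results of these data known.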

Additional observations from a re-analysis of the deposited data

Results flagged for a closer look

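In 14 of 180 sets of 6 clone values, made of named genes and list medians, the highest or lowest clone lay far from the rest. Chance flags about 1 in 20 groups where these are independent and unselected. The sets here were partly picked by their values and share genes, so that rate is no exact baseline for them. Clone J was that clone for 8 sets, clone A for 4 and clone L for 2. Its change was 1.06 for ABCA1 against -2.85 to -1.58 in the other clones, -0.0185 for FADS2 against 0.98 to 1.33, and 0.543 for NPC1 against 0.106 to 0.191. For lists, clone J had medians of 0.148 for cholesterol synthesis and uptake (0.874 to 1.13 in the others), -1.43 for MHC class II (-0.48 to 0.0626), 0.599 for lysosome (-0.0668 to 0.154), 0.642 for endothelial genes (-0.363 to -0.00711) and -0.992 for mast cell and basophil genes (0.0546 to 0.593). Only 6 endothelial and 5 mast cell genes were tested, so those medians rest on few genes.

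Clone A lay apart with 1.03 for CX3CR1 (-0.386 to -0.0381 in the others), -0.417 for the chaperone DNAJB1 (0.206 to 0.462), -0.361 for the median of the unfolded protein and heat shock list (0.0710 to 0.321) and -0.145 for PLOD1, a collagen lysyl hydroxylase (0.226 to 0.404). Clone L lay apart with 0.765 for PRXL2A (0.360 to 0.476) and -0.260 for TTR, the thyroid hormone carrier transthyretin (0.496 to 0.818).

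In 2 cases the clones of 1 genotype all moved one way and those of the other genotype the opposite way. Clones can split like this by chance, and the share of sets in which they would was not computed. TUBB1, the beta-tubulin of platelets, was lower in differentiation 2 in all 3 WT clones and higher in all 3 KO clones, with mean changes that differed by -1.61 (WT minus KO), and its interaction had an adjusted p of 0.999 in edgeR. TUBB1 was near the filter, with means of 0.62 and 0.458 CPM. Medians of the oxidative and metal stress list differed by 0.250 (WT minus KO), and this difference was not tested. The KO medians were only -0.019, -0.030 and -0.003 in clones A, B and C, so those clones hardly moved. The WT medians were 0.36, 0.23 and 0.10 in clones J, K and L.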

How the results depend on the processing

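With no replicate block, that is with genotype in place of clone, 2 genes passed the adjusted threshold, both higher. Without the filter on low counts 80 passed (70 higher, 10 lower), with the stromal covariate 3 (all higher), with DESeq2, which left 4216 genes without an adjusted p, 303 (230 higher, 73 lower) and with limma voom 5 (4 higher, 1 lower). Leaving out 1 clone at a time gave 0 to 50 (0 to 44 higher, 0 to 6 lower), and only the fit without clone J gave any. At an unadjusted p under 0.05 these left 622 to 1094 higher and 365 to 723 lower, fewest without clone B. Other scaling, a stricter filter and a robust spread (added after the data were seen) gave 0 calls. The median of the cholesterol list stayed between 0.81 and 1.02.

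In WT clones, 1 gene passed without the filter (1 lower), 56 with DESeq2 (49 higher, 7 lower) and 0 to 9 with a clone left out (0 to 9 higher). At an unadjusted p, 588 were lower with the stromal covariate, and 274 to 908 were higher and 184 to 1156 lower with a clone left out. In KO clones, 23 passed without the filter (20 higher, 3 lower), 59 with DESeq2 (52 higher, 7 lower) and 0 to 8 with a clone left out (0 to 8 higher), and at an unadjusted p 373 were lower with the covariate, 155 to 691 higher and 79 to 434 lower with a clone left out. For the interaction, an unadjusted p gave 188 higher and 189 lower without the filter, 140 and 144 with the covariate, 90 lower with DESeq2, and 28 to 634 higher and 19 to 538 lower with a clone left out.

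Of 38 list medians, 13 changed sign in at least 1 alternative, all between -0.33 and 0.20 as reported. Among named genes, signs turned as follows. With no replicate block the log2 fold change was 0.30 for TAGLN, 1.06 for COL4A1, 0.89 for COL4A2, 0.64 for COL5A2, 1.59 for IGFBP7, 0.76 for COL1A1, 1.48 for FBN1 and 0.66 for COL5A1. With limma voom it was 0.023 for COL4A1, 0.065 for COL5A2, 0.52 for IGFBP7, 0.36 for COL1A1, 0.20 for FBN1 and 0.11 for COL5A1, and with the covariate 0.21 for IGFBP7, 0.11 for COL1A1 and 0.047 for FBN1. With a clone left out it ran from -0.10 to 0.13 for CSF3R, -0.28 to 0.39 for SIGLEC6, -0.021 to 0.26 for HBB, -0.77 to 0.061 for SALL4, -0.48 to 2.62 for ABI3BP, -2.25 to 0.011 for COL4A1, -2.12 to 0.28 for COL4A2, -0.88 to 0.51 for SLX1B, -1.89 to 0.52 for COL5A2, -1.70 to 0.55 for IGFBP7, -1.57 to 0.44 for COL1A1, -1.67 to 0.59 for FBN1, -1.81 to 0.61 for COL5A1 and -0.23 to 0.072 for P2RY12. The causes were not tested. Depth was alike in all libraries, and the 6 clones set the precision of the change between these 2 differentiations.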

Other observations

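Genes of low oxygen and glycolysis had a median log2 fold change of 0.02 over 39 tested genes. PFKFB4 and PDK3 were the 2 that were higher in all 6 clones, a share near the 3.66% of all genes tested, and their groups did not overlap. PFKFB4, which sets the pace of glycolysis, had 5.33, 8.02 and 8.88 CPM in differentiation 1 (lowest, median and highest) and 10.3, 11.8 and 14.0 CPM in differentiation 2 (0.68 ± 0.12, adjusted p = 0.148 in edgeR). PDK3, a pyruvate dehydrogenase kinase, had 26.4, 27.6 and 31.1 CPM against 32.8, 35.6 and 38.6 CPM (0.34 ± 0.07, adjusted p = 0.201). IL7R, the interleukin 7 receptor, was lower in 6 of 6 clones, with medians of 57.6 and 40.0 CPM (-0.52 ± 0.14, adjusted p = 0.294), and RNASE2, an eosinophil and monocyte ribonuclease, was higher in 5 of 6 (1.27 ± 0.39, adjusted p = 0.346). NUPR1, a stress-induced chromatin protein, was higher by 3.17 in clone J and 2.41 in clone L and lower by 0.32 in clone A, with an adjusted p of 0.355.

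By gene type, 1.72% of 1917 lncRNA genes were higher and 3.91% lower in all 6 clones, against 3.94% and 2.57% of 12970 protein-coding genes. The near-identical histone genes H4C14 and H4C15 traded places, H4C14 being higher by about 4 in clones A, B and C and H4C15 lower by about as much, each listed at 0 in some libraries, so that the assignment of reads between the pair is uncertain. SLX1B, which shares its sequence with SLX1A, had a change of 8.13 in clone L and of -6.83 in clone B and is uncertain for the same reason.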
